A study of Equus caballus with 6 samples.

Results

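ANGPTL7, CLU, PCOLCE2 and TM4SF1 are 4 horse genes whose signal on each array of adult articular cartilage lay above that on each array of fetal limb tissue. They were chosen for exactly this pattern, so the stage difference itself is given as values without any test. The array named 13567 genes, and these 4 were represented by 10 of its 43603 probes: 1 for ANGPTL7, 1 for CLU, 2 for PCOLCE2 and 6 for TM4SF1. The probes were found by the gene that the array's own probe description names.

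Each of 6 tissue regions of the horse was measured on 1 single-colour Agilent array, without replicates. The fetal regions came from limbs of gestational day 40. They were the intermediate layer of the interzone, the outer layer of the interzone, and the transient embryonic cartilage. The interzone is the band of tissue in which a synovial joint forms, and transient cartilage is the template that bone later replaces. The adult regions came from the articular cartilage of the stifle at 15 years of age. They were the superficial zone (0 to 10% of the depth), the middle zone (20 to 30%) and the deep zone (50 to 90%). No genotype or treatment distinguishes the groups. All regions were cut out of 10 µm cryosections with a laser, and their RNA was amplified by PCR before 250 ng of cDNA was labelled. The sources used here do not give the number of animals, nor whether the regions of a stage came from the same animal. The 3 fetal arrays lay on slide 1 and the 3 adult arrays on slide 2, each scanned together, so stage and slide cannot be told apart.

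ANGPTL7 encodes a secreted protein of the angiopoietin-like family, known from the cornea and the trabecular meshwork of the eye. CLU encodes clusterin, an extracellular chaperone that binds misfolded proteins and restrains complement lysis, and it is abundant in articular cartilage. PCOLCE2 encodes a procollagen C-endopeptidase enhancer, a secreted protein that speeds the removal of the C-propeptide from fibrillar procollagens. TM4SF1 encodes a small membrane protein of the L6 family, related to the tetraspanins and best known from endothelial and tumour cells.

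The probes are 60-base oligonucleotides, and 3 sets are shown because what they share decides how far probes of a gene are independent readings. Sequences are those of the array design, 5′ to 3′. ANGPTL7 has this probe only, so no second reading of that gene exists.

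ANGPTL7 probe: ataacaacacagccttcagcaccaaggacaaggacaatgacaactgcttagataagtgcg

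The PCOLCE2 pair overlaps by 16 bases, given in capitals, and otherwise reads adjacent parts of the transcript.

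PCOLCE2 probe 1: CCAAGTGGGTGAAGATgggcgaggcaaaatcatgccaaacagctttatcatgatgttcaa

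PCOLCE2 probe 2: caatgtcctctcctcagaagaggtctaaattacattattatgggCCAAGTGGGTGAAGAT

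For TM4SF1, 5 of the 6 probes are the same stretch shifted by single bases. The first and the last of them are shown, with the 56 bases common to all 5 in capitals.

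TM4SF1 probe 1: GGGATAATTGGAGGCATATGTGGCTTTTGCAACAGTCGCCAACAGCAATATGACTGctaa

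TM4SF1 probe 5: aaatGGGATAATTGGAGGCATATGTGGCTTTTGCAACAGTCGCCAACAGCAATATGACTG

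These 5 TM4SF1 probes are thus close to a repeated reading of 1 target. The sixth TM4SF1 probe was designed on another sequence record, has a GC content of 35% against 43.3 to 45% in the other 5, and holds the polyadenylation signal letters AATAAA at position 47, which leaves 8 bases after them. The CLU probe holds AATAAA at position 39. Neither is printed. No other probe on the array shared 25 or more bases in a row with a probe of these genes.

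The arrays differed widely in how much of the transcriptome they registered, and this bears on every value below. A probe is called well above background where the scanner software flags it so. Between 36.9 and 44.6% of probes were well above background on the fetal arrays, 26.4% on the superficial, 8.39% on the middle and 10.8% on the deep array. No spot was saturated. To compare arrays, signals were taken as log2 and set relative to the 75th percentile of those 1765 probes that were detected on each of the 6 arrays (normalized log2). Of 18 widely expressed genes, 17 were above background on each fetal array, 13 on the superficial, 3 on the middle and 9 on the deep array. Of 13 chondrocyte matrix genes, 9 to 12 were above background on fetal arrays and 3 to 5 on adult arrays. ACAN, COMP and SOX9 were above background on all 6 arrays. COL2A1, the type II collagen chain that defines cartilage matrix, reached 4710, 14100 and 183000 on the fetal arrays and was not well above background on any adult array with any of its 6 probes. This defining marker was thus not detected on the adult arrays, while the 3 named before it were. Of the 9 list genes detected on all 3 fetal arrays, 5 had every adult array below every fetal array, against 34.4% of all genes so detected. They were COL2A1, COL9A2, COL9A3, COL11A1 and CNMD. Of the 3 detected on all 3 adult arrays, only COMP had every adult array above every fetal array.

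ANGPTL7 was at the low end of measurable signal throughout the fetal limb and bright in all zones of adult cartilage. Its processed signal in the fetal limb was 18.5 (intermediate interzone), 27.2 (outer interzone) and 31.3 (transient cartilage). It was 7430 in the superficial, 3100 in the middle and 2330 in the deep zone. The stages did not overlap, and all 6 values were well above background. Normalized, it averaged 1.85 ± 0.67 log2 in the adult and -7.15 ± 0.17 in the fetal regions (SD over the 3 regions of a stage, which are not replicates). The difference was 8.99 log2, or 509.9-fold, with an error of 0.14 log2 from the scanner's spot errors alone. The lowest adult value, in the deep zone, was 339-fold above the highest fetal one.

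CLU was already clear of background in the fetal limb and was nearly level there. Its fetal signals were 347 (intermediate interzone), 353 (outer interzone) and 365 (transient cartilage). It was 20500 in the superficial, 6110 in the middle and 29600 in the deep zone. The adult mean was 3.88 ± 1.06 log2 and the fetal mean -3.32 ± 0.47 (SD over 3 regions), a difference of 7.21 log2 with a spot error of 0.12, or 148-fold. The smallest step between the stages, superficial zone over intermediate interzone, was 55.4-fold.

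PCOLCE2 was the member with the most uneven fetal signal. Its brighter probe, probe 1, read 9.99 (intermediate interzone), 21.8 (outer interzone) and 572 (transient cartilage). The adult values were 9680 in the superficial, 1320 in the middle and 13900 in the deep zone. The adult mean was 2.42 ± 1.36 log2 and the fetal mean -6.15 ± 2.82 (SD over 3 regions). The difference of 8.58 log2 (spot error 0.16) amounts to 381-fold, but it averages over fetal regions that themselves differed strongly. The middle zone was 19.4-fold (4.28 log2) above transient cartilage, its nearest fetal neighbour. That gap depended on the scale: it was 2.97 log2 in the authors' table and 1.21 log2 without scaling.

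TM4SF1 was likewise uneven in the fetus, in the opposite order. Its brightest probe, probe 1, read 486 (intermediate interzone), 367 (outer interzone) and 60.4 (transient cartilage). It read 17500 in the superficial, 5570 in the middle and 6550 in the deep zone. The adult mean was 3.04 ± 0.37 log2 and the fetal mean -4.01 ± 1.96 (SD over 3 regions), a difference of 7.05 log2 with a spot error of 0.12, or 132-fold. The superficial zone lay 33.8-fold above the intermediate interzone, the smallest step between the stages.

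**Figure D1:**
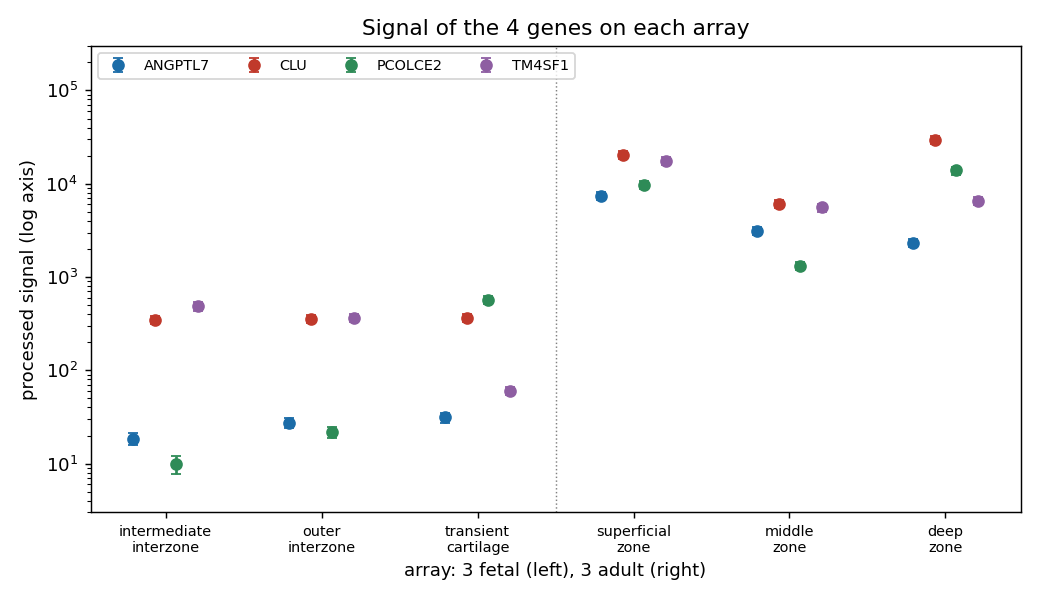
Processed signal (log axis) of the reported probe of each gene on each of the 6 arrays, fetal on the left and adult on the right of the dotted line. Points are single arrays and bars are the spot error (1 SD) that the scanner software assigns. All adult points of a gene lie above all its fetal points, and the fetal points of PCOLCE2 run from 9.99 to 572 while those of CLU stay between 347 and 365.

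Other genes of the array had the pattern too. Of 718 genes well above background on all 3 adult arrays, 232 (32.3%) had every adult array above every fetal array. Those 232 were 1.71% of all 13567 genes. Detection on the adult arrays was itself required here, and the share was 23.6% among genes well above background on all 6 arrays. It was 13.4% over all genes without that filter, with undetected values raised to each array's lowest detected value. That lowest value was -6.01 log2 on the middle and -6.86 on the deep array, against -8.94 to -8.02 on the fetal arrays. Genes not detected there can thus take the pattern from these limits, so the 13.4% is not a background rate. With an adult array left out, both the filter and the comparison rest on the remaining ones: 403 of 802 genes (50.2%) had the pattern without the superficial, 458 of 1243 (36.8%) without the middle and 372 of 986 (37.7%) without the deep array. Of the 569 genes well above background on all 6 arrays, 14.9% were at least 4-fold higher and 9.49% at least 4-fold lower in the adult mean. Their median adult minus fetal difference was 0.55 log2, with an SD over genes of 1.94. Relative to that median, ANGPTL7 stood at 8.44, PCOLCE2 at 8.02, CLU at 6.66 and TM4SF1 at 6.50 log2. Among the 232 genes ordered by the gap between the lowest adult and the highest fetal array, ANGPTL7 was number 4, CLU 8, TM4SF1 11 and PCOLCE2 14. At the edge of the pattern, OR1AD1 lay just inside with a gap of 0.015 log2 and DDX6 just outside with -0.00064. The gap is what the genes were chosen on, so these ranks only describe the choice.

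**Figure D2:**
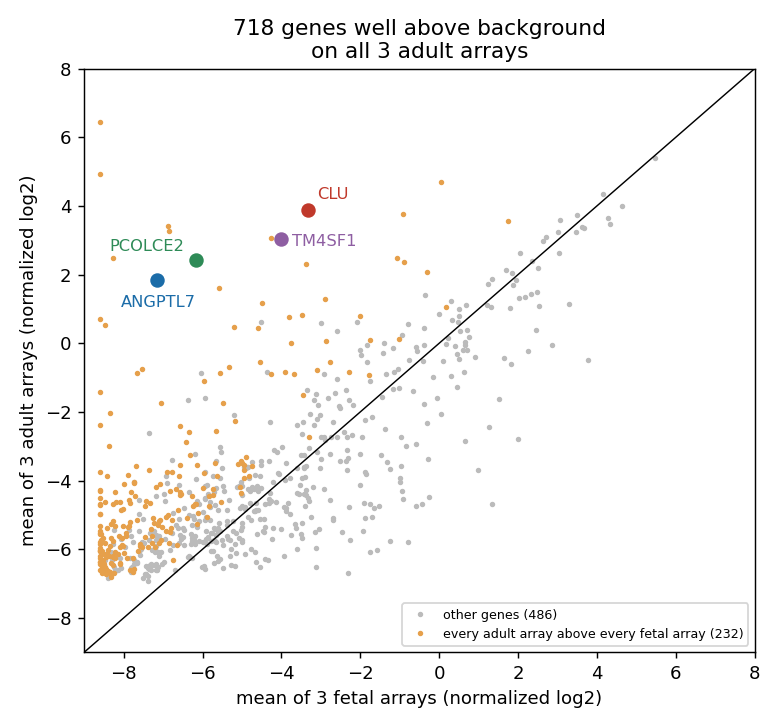
Mean of the 3 adult arrays against the mean of the 3 fetal arrays (normalized log2) for 718 genes well above background on all 3 adult arrays, with values not above background raised to each array's lowest detected value. Orange points are the 232 genes with every adult array above every fetal array, grey points the other 486, and the line marks equality. ANGPTL7 (adult 1.85, fetal -7.15), PCOLCE2 (2.42, -6.15), TM4SF1 (3.04, -4.01) and CLU (3.88, -3.32) lie far above the line.

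The second PCOLCE2 probe, which shares only the 16 capital bases shown above, gave the same order of arrays where it could be read. It was not well above background in either interzone layer, with signals of 2.01 and 1.92, and read 399 in transient cartilage. It read 5740 in the superficial, 677 in the middle and 7020 in the deep zone. With its interzone signals taken at the lowest signal detected on those arrays, transient cartilage was at least 24.3-fold above the intermediate and at least 45.8-fold above the outer interzone.

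The 5 overlapping TM4SF1 probes read alike, with a coefficient of variation of 4.04% on the superficial array to 12.5% on the deep array. The sixth probe read differently. It gave 12.7, 23.2 and 23.9 on the intermediate, outer and transient arrays. On the adult arrays it gave 1.70 in the superficial zone, 35.4 in the middle and 1.53 in the deep zone, and only the middle value was well above background. By this probe TM4SF1 was brighter in the adult only in the middle zone, and it was not detected where the other 5 probes read 16800 to 18400 (superficial) and 6270 to 8040 (deep). Whether the sixth probe reads the same transcript was not tested, and the TM4SF1 values here are those of the overlapping probes.

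**Figure D3:**
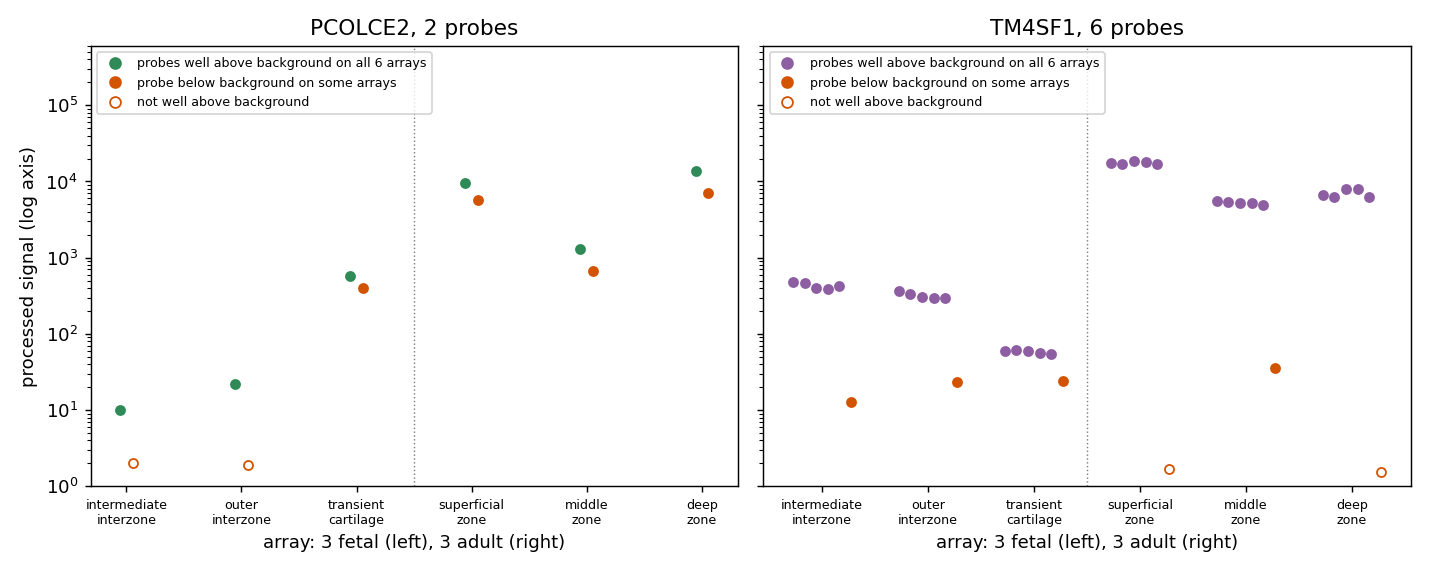
Processed signal (log axis) of every probe of PCOLCE2 (left) and TM4SF1 (right) on the 6 arrays, with open circles where a probe was not well above background. The PCOLCE2 pair moves together. For TM4SF1, 5 probes cluster within each array, while the sixth (orange) lies between 1.53 and 35.4 on all arrays.

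The comparisons within a stage were not used to choose the genes. With 1 array per region they have no replicate error, so a difference is called resolved only where it exceeded 2 spot errors, with a spot error of 0.20 log2 for most pairs. That limit covers the scan and not animals, dissection or amplification. For bright spots the software's error was a fixed share of the signal, such as 743 at 7430 and 2050 at 20500. It is thus not a spread measured over repeated spots. In bulk tissue, fewer cells that express a gene and less RNA per cell cannot be told apart. The median gene also moved between arrays: it was 1.51 log2 lower in the superficial than in the middle zone, 0.83 lower in the superficial than in the deep zone, and 0.80 higher in the middle than in the deep zone. Adult zones are therefore given both as they stand and relative to these medians.

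CLU was highest in the deep zone, at 4.15-fold the superficial and 2.76-fold the middle zone, both resolved. Relative to the median gene the deep zone was 2.34-fold above the superficial and 4.79-fold above the middle zone. Under quantile normalization the deep zone still exceeded the superficial one in CLU, but by less than the median gene did. Of 1243 genes measured in both zones, 20.9% favoured the deep zone by 4-fold or more. CLU was also 0.59 log2 higher in the middle than in the superficial zone, but this order turned under other scalings and is not read as a zonal difference.

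PCOLCE2 followed CLU in the adult, with the deep zone 4.13-fold above the superficial and 5.99-fold above the middle zone. Relative to the median gene these steps were 2.32-fold and 10.4-fold, and under quantile normalization the first again fell short of the median gene's. Of 802 genes measured in both the middle and deep zones, 7.98% favoured the deep zone by 4-fold or more. The superficial zone exceeded the middle by 1.45-fold, in this direction under all 8 settings tried, where 9.53% of 986 genes favoured the superficial zone by 4-fold or more. That step was within 2 spot errors in some settings. It was 0.30 log2 with the 75th percentile over all probes and 0.21 with the 50th percentile over common probes. The second probe gave 3.51-fold and 5.90-fold for the deep zone over the superficial and middle zones, and 1.68-fold for superficial over middle.

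ANGPTL7 was highest in the middle zone on the normalized scale, 2.11-fold above the superficial and 2.34-fold above the deep zone. The middle zone exceeded the deep zone under all 8 settings, by 1.35-fold relative to the median gene. With the 50th percentile over all probes and in the authors' table this step was 0.37 log2, within 2 spot errors. The step from middle to superficial turned over in 3 settings, of which the authors' table nearly repeats the 50th percentile over all probes. Superficial and deep differed by 1.11-fold, within 2 spot errors (0.84 to 1.47 as a ratio). The unscaled signals of 7430, 3100 and 2330 put the superficial zone first, and superficial minus deep ran from -0.76 to 1.67 log2 over the settings, so neither the middle nor the deep zone can be ordered against the superficial zone for ANGPTL7.

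The order of the adult zones for TM4SF1 rested on the scale. The middle zone was 1.61-fold above the superficial and 1.49-fold above the deep zone, and both steps turned over under other scalings. Superficial and deep zones differed by -0.10 log2, which is within 2 spot errors, but the difference was -1.02 with the 75th percentile over all probes, 0.98 with the 50th percentile over all probes or in the authors' table, and 1.42 without scaling. Over the 5 overlapping probes the superficial minus deep difference was -0.19 ± 0.12 log2 (SD over probes).

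In the fetal limb PCOLCE2 separated the cartilage template from the interzone. Transient cartilage was 32.2-fold above the intermediate interzone and 27.0-fold above the outer interzone, and the interzone layers differed by 1.19-fold, within 2 spot errors. A step of 4-fold or more in favour of transient cartilage was seen in 6.65% of 4299 genes against the intermediate layer and in 8.34% of 4785 genes against the outer layer. The share for the outer over the intermediate layer was 7.27% of 4251 genes. With normexp background correction, which compresses dim signals, the PCOLCE2 steps fell to -1.43 and -2.97 log2 as they stand, from -5.01 and -4.75. Relative to the median gene they fell to -2.40 and -2.97 log2, from -5.36 and -4.83. Intermediate minus outer interzone became 1.55 log2 with normexp, so the likeness of these layers depends on the background correction. The interzone signals of 9.99 and 21.8 sit close to the lowest signals called well above background on those arrays, 9.24 and 8.95, so the size of these steps is less firm than their direction.

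TM4SF1 ran the other way in the fetus. The intermediate interzone was 14.3-fold and the outer interzone 5.91-fold above transient cartilage, and the intermediate layer was 2.42-fold above the outer layer. All 3 steps were resolved on the normalized scale and kept their direction under all 8 settings. Without scaling, intermediate minus outer was 0.405 log2, just within 2 spot errors. The 5 overlapping probes gave 3.71 ± 0.10, 2.40 ± 0.09 and 1.31 ± 0.07 log2 for them (SD over probes), whereas the sixth probe was level across the 3 fetal arrays. The share of genes at least 4-fold higher was 14.9% for intermediate over transient, 10.5% for outer over transient, and 10.9% for intermediate over outer.

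ANGPTL7 and CLU gave no fetal difference that kept its direction under all settings. The ANGPTL7 signals differed by at most 1.24-fold after scaling, within 2 spot errors. With normexp, intermediate minus outer became 1.62 and intermediate minus transient 1.40 log2, so the order of these dim signals depends on the background correction. CLU was 1.80-fold higher in the intermediate than in the outer layer and 1.69-fold higher than in transient cartilage, both resolved. Without scaling those 2 differences were -0.025 and -0.073 log2, so they come and go with the array scale.

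**Figure D4:**
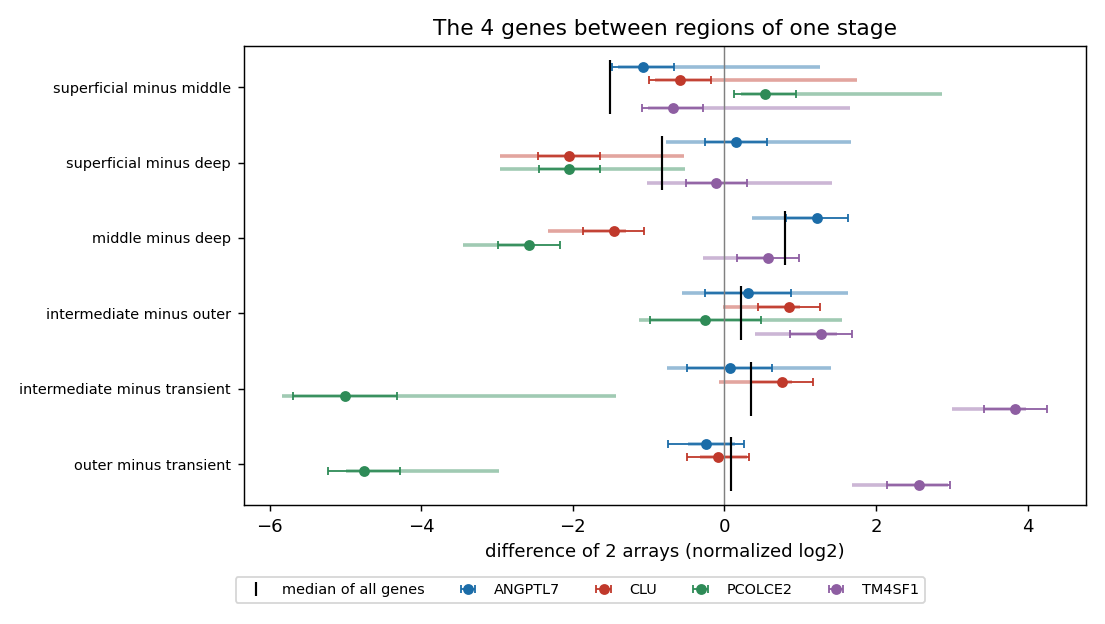
Difference of each pair of arrays of one stage (normalized log2) for the 4 genes. Points carry bars of 2 spot errors, pale lines span the values under 8 ways of scaling or background correction, and black ticks mark the median of all genes measured on both arrays. Only lines that stay on one side of 0 have a direction that does not depend on these choices, such as PCOLCE2 and CLU in middle minus deep and TM4SF1 in all 3 fetal pairs.

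The other genes of the pathways around each member were counted from lists of family members, partners and substrates. For the ANGPTL7 family few genes could be read in the adult. Of 20 angiopoietins, angiopoietin-like and related fibrinogen-domain genes, 14 were on the array and 9 were above background somewhere. Of the 3 above background on all 3 adult arrays, none had every adult array above every fetal array, a number too small to set against the 32.3% over all genes. Of the 4 above background on all 3 fetal arrays, 3 (ANGPTL1, ANGPTL2 and MFAP4) had every adult array below, against 34.4% of the 3866 genes so detected.

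ANGPTL2, a secreted paralog linked to inflammation, read 809, 1860 and 175 in the intermediate interzone, outer interzone and transient cartilage. It read 71.3, 18.6 and 9.63 in the superficial, middle and deep zones. It was well above background on all 6 arrays and 8.09-fold lower in the adult. ANGPTL1 read 1520 to 2880 in the fetal regions and was not well above background in the adult, at least 71.3-fold lower. MFAP4, a microfibril-associated protein with the same fibrinogen-like domain, read 85.5 to 679 in the fetus and was at least 9.75-fold lower in the adult. ANGPTL4, a lipoprotein lipase inhibitor, followed neither stage: it read 220 in the intermediate interzone and 166 in the superficial zone. Its other values were 61.8 in the outer interzone, 8.62 in transient cartilage (not well above background), 11.6 in the middle and 8.55 in the deep zone. ANGPT4 was above background on 1 adult and 2 fetal arrays, with signals of 1.58 to 25.8.

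Of 37 genes of complement and of extracellular chaperoning listed for CLU, 29 were on the array, 15 were above background somewhere and 14 nowhere. CFB was above background on all 3 adult arrays and had every adult array above every fetal one. CFB, the protease subunit of the alternative pathway convertase, read 25100, 3060 and 2550 in the superficial, middle and deep zones. Its fetal values were 1.94, 17.8 and 2.12, of which only the outer interzone was well above background. C1S, a protease of the classical pathway, read 374 in the superficial and 815 in the middle zone and was not well above background in the deep zone. CD55, a membrane inhibitor of the convertases, was above background in the superficial zone only, at 299. No gene of this list was well above background on all 6 arrays.

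PCOLCE, which encodes the first procollagen C-endopeptidase enhancer, read 119 (intermediate interzone), 56.3 (outer interzone) and 22.0 (transient cartilage). It read 18.7 in the superficial zone and was not well above background in the middle and deep zones. The fetal order of PCOLCE was thus the reverse of that of PCOLCE2. Of 19 procollagen processing genes 16 were on the array. On the normalized scale 1 of the 2 detected on all 3 adult arrays, FN1, had every adult array above every fetal one (32.3% over all genes). Of the 7 detected on all 3 fetal arrays, 3 (LOXL2, LOXL3 and SFRP2) had every adult array below (34.4% over all genes).

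FN1, which encodes fibronectin, read 4390, 6860 and 1650 in the fetal regions and 58600, 5700 and 59400 in the superficial, middle and deep zones, a difference of 4.64 log2 in favour of the adult after scaling. Its unscaled middle zone signal lay below that of the outer interzone. SFRP2, a secreted WNT modulator that can also bind the C-proteinase, read 3660 to 26300 in the fetus. It was not well above background in the adult, at least 507-fold lower. LOXL2, a collagen cross-linking oxidase, read 370 to 831 in the fetus and was at least 21.7-fold lower in the adult. Its relative LOXL3 read 759 to 6410 in the fetus and 613 in the superficial zone. After scaling, its superficial zone stood at -2.06 log2 and its outer interzone at -2.02, so LOXL3 was only barely lower in the adult there. Counting all 7 of its probes, LOXL3 was detected on 2 adult arrays.

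Of 11 fibrillar procollagen chains, all on the array, only 1, COL27A1, was detected on all 3 adult arrays. It did not have every adult array above every fetal one, with means of -0.82 log2 in the adult and -1.16 in the fetus. Of the 7 detected on all 3 fetal arrays, 5 (COL1A1, COL1A2, COL2A1, COL3A1 and COL11A1) had every adult array below, against 34.4% of all genes so detected. COL1A2 read 59500 to 101000 in the fetus and 15.6 in the superficial zone, its only adult value well above background. COL1A1 read 20500 to 34700 in the fetus and was likewise above background in the superficial zone alone among adult arrays. COL3A1 read 11300 to 91900 in the fetus and 4660 in the superficial zone. COL2A1, whose values are given above, was at least 857-fold lower in the adult. These 4 chains were named for the largest stage differences in the list. Of all 11 chains, 5 (45.5%) were above background on the superficial, 1 (9.09%) on the middle and 2 (18.2%) on the deep array. Over all genes, counting any probe, the shares were 28.9, 9.76 and 12.4%. PCOLCE2 was bright on all 3 of these arrays.

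**Figure D5:**
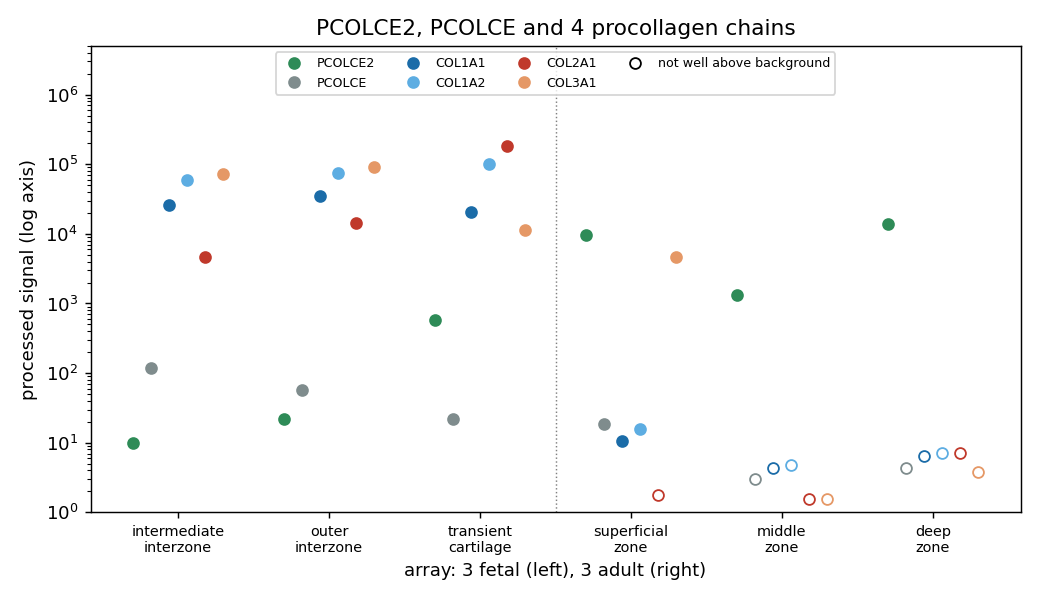
Processed signal (log axis) on the 6 arrays of PCOLCE2, its paralog PCOLCE and the procollagen chains COL1A1, COL1A2, COL2A1 and COL3A1, with open circles where a probe was not well above background. PCOLCE2 reads 9.99 to 572 on fetal and 1320 to 13900 on adult arrays, while the chains read 4710 or more on every fetal array and are mostly not detected on adult arrays.

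Of 30 other genes of the L6 family and the tetraspanins, 19 were above background somewhere and 2 on all 6 arrays. Only 2 were detected on all 3 adult arrays, and neither had every adult array above every fetal one. Of the 9 detected on all 3 fetal arrays, 5 (CD81, TSPAN3, TSPAN6, TSPAN7 and TSPAN17) had every adult array below, against 34.4% of all genes so detected. TSPAN3 read 1440 to 3750 in the fetus, 186 in the superficial and 15.3 in the deep zone. TSPAN6 read 746 to 1380 in the fetus and 232 in the superficial zone, and counting all 3 of its probes it was detected on 2 adult arrays. CD81, a partner of many integrins and receptors, read 202 to 544 in the fetus and was at least 12.4-fold lower in the adult. TSPAN7 read 74.6 to 751 and was at least 7.73-fold lower. TM4SF18 and TM4SF4, L6 family genes that lie directly on either side of TM4SF1 in the horse genome, were not well above background on any array.

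Neighbouring genes of the other members gave no common pattern either. Next to ANGPTL7 lie MTOR, which read 627 to 2610 in the fetus and 2910 in the superficial zone only, and EXOSC10, detected only in the interzone layers. Next to CLU, GULO was detected only in the deep zone, at 9.78, and SCARA3 only in the superficial zone, at 150. TRPC1, beside PCOLCE2, was detected only in transient cartilage, at 15.8.

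Among 30 genes listed for their known expression in adult articular cartilage, 27 were on the array and 26 above background somewhere. On the normalized scale 4 of the 7 detected on all 3 adult arrays (COMP, SOD2, GPX3 and TIMP3) had every adult array above every fetal one, against 32.3% of all genes so detected. The unscaled signals of COMP and GPX3 overlapped between the stages, being lower in the middle zone than in transient cartilage. Of the 14 detected on all 3 fetal arrays, 4 (ECRG4, LUM, FIBIN and SPARC) had the opposite pattern, against 34.4%. SOD2, the mitochondrial superoxide dismutase, read 49000, 9000 and 3100 in the superficial, middle and deep zones and 2.30, 278 and 10.9 in the fetal regions. Of those fetal values only the 278 of the outer interzone was well above background. Counting all 17 of its probes, SOD2 was detected on each of the 3 fetal arrays, so its low fetal values belong to the reported probe. TIMP3, a matrix-bound metalloproteinase inhibitor, read 33100, 4730 and 4280 in the adult and 398, 38.9 and 411 in the fetus, 160-fold higher in the adult. MMP3, a matrix metalloproteinase, read 7610 in the superficial and 1840 in the middle zone and was not well above background elsewhere. SPARC, a collagen-binding glycoprotein, read 3720 to 9620 in the fetus and 17.2 in the superficial zone. For the genes of this list measured on all 6 arrays, 5 in number, the median adult minus fetal difference was 0.14 log2, against 0.55 over all 569 genes.

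Since TM4SF1 is also an endothelial gene, markers of other cell types were read on the same arrays. Of 13 endothelial markers, 4 to 6 were above background on fetal arrays and 3 or 4 on adult arrays. PECAM1 and CDH5, which define endothelium, were not well above background on any array. PLVAP and EGFL7 were above background on all 6 arrays. Their adult means were -5.55 and -5.75 log2 and their fetal means -6.29 and -6.27. The median adult minus fetal difference of these 2 genes was 0.63 log2, against 0.55 over all 569 genes so detected. VWF was detected on all 3 adult arrays, at 25.6 to 41.6, and on no fetal array. Summed over the list, endothelial signal as a multiple of each array's 75th percentile was 0.14 to 0.32 on fetal and 0.09 to 0.24 on adult arrays. Of 10 macrophage and leukocyte markers, 4 were above background on each fetal array and 2 or 3 on adult arrays. CSF1R, the only 1 detected on all 3 adult arrays, had every adult array above every fetal one (32.3% over all genes so detected). Of the 4 detected on all 3 fetal arrays, CD68 and AIF1 had every adult array below (34.4% over all genes so detected). These numbers are too small to set against those shares. The sum for that list was 0.09 to 0.27 on fetal and 0.03 to 0.26 on adult arrays, with CD14, CD74 and C1QA not well above background on any array. The part of these cells in the values of the 4 genes was not tested beyond this.

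The genes whose profile was most like each member were taken by Pearson's r over the 6 arrays among 4253 genes above background on at least 3 arrays and spanning at least 2 log2 units. With 3 low and 3 high arrays such an r mainly repeats the stage difference and is a description only. For ANGPTL7 the 5 closest were SAA1, SAA, ANXA7, EQUCABV1R918 and RASL12, with r of 0.99 or more. For CLU they were TRIM2, NOS2, ZNF652, SOWAHD and DMRTC2, with r from 0.99 to 1.00. SAA1 and SAA encode serum amyloid A proteins of the acute phase, and NOS2 the inducible nitric oxide synthase. These 3 genes were well above background on the 3 adult arrays only. Their fetal values in r are therefore each array's lowest detected value, not measured signals.

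PCOLCE2 had the fewest close profiles, with 15 genes over an r of 0.9, against 86 for ANGPTL7 and 74 each for CLU and TM4SF1. Its closest were FBXL18, NMUR1, CFP, GPX3 and COMP, with r from 0.96 down to 0.93. GPX3, an extracellular glutathione peroxidase, and COMP, the cartilage oligomeric matrix protein, had the arrays in the PCOLCE2 order on the normalized scale, though not by their unscaled signals. COMP read 441 (intermediate interzone), 1360 (outer interzone) and 11400 (transient cartilage), then 16700, 1860 and 94700 in the superficial, middle and deep zones. GPX3 read 9.39, 146 and 294 in the same fetal order and 5510, 270 and 21900 in the adult. It was well above background on 5 of the 6 arrays. Its 9.39 in the intermediate interzone lies next to the lowest signal detected there, 9.24. Transient cartilage was thus the highest fetal region and the deep zone the highest adult region for all 3 of these genes.

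For TM4SF1 the closest were GRAP, TESMIN, SOWAHD, IQGAP1 and TSKU, with r from 0.98 to 0.97. TESMIN was well above background on the 3 adult arrays only. IQGAP1, a scaffold protein of the cortical cytoskeleton, also had the arrays in the order of TM4SF1, with normalized values of -3.83, -4.79 and -5.14 log2 in the intermediate interzone, outer interzone and transient cartilage. Its adult values were -0.53, 1.40 and 0.43 in the superficial, middle and deep zones.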

How the data were processed

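For every array the authors deposited the file of the scanner software, which was Agilent Feature Extraction (version 10.7.3.1) per the submitters' processing notes. Per the file headers, the processed signal in it is an intensity from which background was subtracted, not log-transformed. The deposited series table proved to hold a ratio, the processed signal over each array's median (column medians 1, log2 correlation 1.00 on each array), and served as an alternative. From the 45220 spots, 1417 controls and 3 to 80 flagged outliers on an array were dropped, and replicate spots were averaged. The log2 values were computed from the authors' processed signal. Probes were named from the files' descriptions through a table of horse genes (assembly TB-T2T), and 19978 stayed unnamed. Each gene is reported by its brightest probe on average over the 6 arrays. Folds marked "at least" take the dim side at the higher of each array's lowest detected signal and the probe's own.

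Each group had 1 array, so no test was run. The 4 genes and the gene lists were chosen with earlier results of these data known. Named genes were the members, up to 4 per related list with the largest stage difference, 5 paralogs, and the 5 closest profiles per member. Some results are not reported here. Neighbouring genes, marker genes and genes named in counts were added by position or list. A search of promoters was planned and not run, since no promoter sequences were used here. Python 3.11.15, R 4.3.3 and limma 3.58.1 (quantile, normexp with offset 50) were used, and the scaling was tested on simulated data. Array number limits the precision.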

Additional observations from a re-analysis of the deposited data

How the results depend on the processing

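All 4 genes kept every adult array above every fetal array under each of the 14 other settings, leave-one-out included. The cause of the shifts below was not tested beyond the scale of the arrays. Adult minus fetal differences, in the order ANGPTL7, CLU, PCOLCE2 and TM4SF1, were 11.70, 9.91, 11.28 and 9.75 log2 with the 75th percentile over all probes, 8.45, 6.67, 8.03 and 6.50 with the 50th percentile over all probes, and 7.23, 5.45, 6.81 and 5.28 without scaling. They were 9.65, 8.23, 9.16 and 8.12 with quantile normalization, 6.94, 6.85, 6.65 and 6.51 with normexp, and 8.45, 6.66, 8.03 and 6.50 in the authors' table. Scalings moved the median gene from -1.21 (none) to 3.25 log2 (75th percentile, all probes). Values relative to it were 8.44, 6.66, 8.02 and 6.50 under every percentile. That sameness was fixed in advance, because a percentile shifts all genes of an array alike. The relative values were 6.99, 5.56, 6.49 and 5.45 with quantile normalization and 5.99, 5.89, 5.70 and 5.56 with normexp. The mean over probes gave 9.18 for PCOLCE2 and 5.94 for TM4SF1, which take in signals not above background of a further probe. The gap between the lowest adult and highest fetal array ran from 5.52 to 10.84 for ANGPTL7, 4.07 to 8.11 for CLU, 1.21 to 9.03 for PCOLCE2 and 3.52 to 7.39 for TM4SF1, over all settings and left-out arrays. Leaving out each array in turn gave 8.61 to 9.22 for ANGPTL7, 6.62 to 7.65 for CLU, 7.70 to 10.20 for PCOLCE2 and 5.98 to 7.90 for TM4SF1.

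The count of 232 genes became 566 with the 75th percentile over all probes, 83 without scaling, 435 with quantile normalization and 103 with normexp. It was 1818 with no filter, 134 among genes above background on all 6 arrays, 94 with a gap of at least 1 log2 unit, and 248 to 458 when an array was left out. The count of 1818 takes in genes not above background, whose order can come from each array's lowest detected value.

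Of 24 differences within a stage (4 genes, 6 pairs), 13 spanned 0 over 8 settings and 11 kept 1 sign, 9 of them also relative to the median gene. The authors' table, a ratio to each array's median, nearly repeats the 50th percentile over all probes, so these settings are not independent. Among those beyond 2 spot errors, superficial minus middle became 0.87 for ANGPTL7, 1.36 for CLU and 1.26 for TM4SF1 with the 50th percentile over all probes and in the authors' table, and 1.26, 1.75 and 1.65 without scaling. Middle minus deep for TM4SF1 became -0.10 with the 75th and -0.28 with the 50th percentile over all probes, -0.28 in the authors' table and -0.23 without scaling. CLU in the intermediate interzone became -0.025 against the outer layer and -0.073 against transient cartilage without scaling. At a 2-fold threshold, 60.4% of genes were lower in the superficial than in the middle zone and 45.1% lower than in the deep zone. By Spearman's rho, 11, 12, 3 and 42 genes tied at 1 with ANGPTL7, CLU, PCOLCE2 and TM4SF1, so rho orders them poorly. No paired analysis was possible because each group had 1 array. The dim interzone signals of PCOLCE2 and the single array per region limit what these values show.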
